A study of Mus musculus with 10 samples.

Results

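The EGF family of growth factors and its receptors were examined in YUMMER1.7 melanomas grown in wild-type (WT) mice or in mice lacking the ubiquitin ligase Siah2. The members were 10 listed genes, taken by symbol from a table of 24421 genes: the ligands Areg, Ereg, Hbegf, Btc, Tgfa and Nrg1, the receptors Egfr, Erbb2 and Erbb3, and the receptor inhibitor Errfi1. All 10 had values above 0 and all were tested. YUMMER1.7 is a mouse melanoma line that carries an activating Braf allele and lacks Cdkn2a, among other changes, and 100000 cells were placed under the skin of the flank of each mouse. Tumors were taken on day 10, 5 from WT mice (WT2 to WT6) and 5 from Siah2 KO mice (KO1 to KO5, the names of the table's columns). The mice were C57BL/6 males of 6 to 10 weeks, an age given for the study as a whole, and the KO mice are germline knockouts (Siah2-/-) rather than knockouts of 1 cell type. Both groups received the same line, so the labels describe the host, and no source used here states whether the line carries Siah2.

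EGF family ligands are made as precursors in the cell membrane and are cut free by metalloproteases such as Adam17. Areg, Tgfa and Egf bind Egfr, whereas Hbegf, Ereg and Btc bind Egfr and the related receptor Erbb4, and Nrg1 binds Erbb3 and Erbb4. Erbb2 has no known ligand of its own and pairs with the other receptors, and Erbb3 has little kinase activity and passes the signal on through its partner. In skin the family is known for its part in keratinocyte growth, hair follicle growth and wound repair, and Nrg1 with Erbb3 for its part in Schwann cells and their relatives, the melanocytes. Macrophages, mast cells, basophils and regulatory T cells are among the leukocytes known to make Areg or Hbegf.

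Each value below is a score: the number of reads on a gene in a tumor, which the authors normalized between libraries and gave as a whole number. The total score ranged from 15414758 to 15527530 in WT libraries and from 15605574 to 16503134 in KO libraries. The Siah2 transcript itself did not fall with the label. Siah2 scored 391 to 428 in WT tumors and 490 to 747 in KO tumors, a log2 difference of 0.62 ± 0.11 (SE) with an adjusted p of 0.00104. All 5 KO values lay above all 5 WT values, so the group is called KO-labelled from here on. The exons that the knockout removes are not stated in the sources used here, and reads of the injected cells are in every library, so the level of this transcript is no check of the host genotype. Differences were taken on log2(score + 1), KO-labelled minus WT, with limma, and a gene was called when its p-value adjusted over all 12926 tested genes (Benjamini-Hochberg) was under 0.05. Litter, cage and processing day of each tumor are not in the labels, so the p-values measure the spread between these tumors. In whole tumors, fewer cells of a type and less RNA per cell cannot be told apart.

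Most ligand transcripts were higher and most receptor transcripts lower in KO-labelled tumors. Of the 6 ligands, 5 rose (Areg, Ereg, Hbegf, Btc and Nrg1), and of the 3 receptors 2 fell (Egfr and Erbb2). Tgfa, Erbb3 and Errfi1 did not pass the threshold. The count of members called lower was 0 without WT3 or without WT6, and 1 without WT2, WT4, WT5, KO2, KO3 or KO4, whereas that of members called higher was 4 or 5 without any 1 tumor. Among all tested genes, 17.5% were called higher and 18.2% lower, so changed genes were frequent in this comparison in both directions. The median log2 difference was 0.84 over the 6 ligands, 0.45 over the 10 members and close to 0 (-0.0006) over all tested genes. With scores rescaled to equal library totals the median of all genes moved to -0.06, and 38.6% of called genes were higher in place of 49%.

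**Figure D1:**
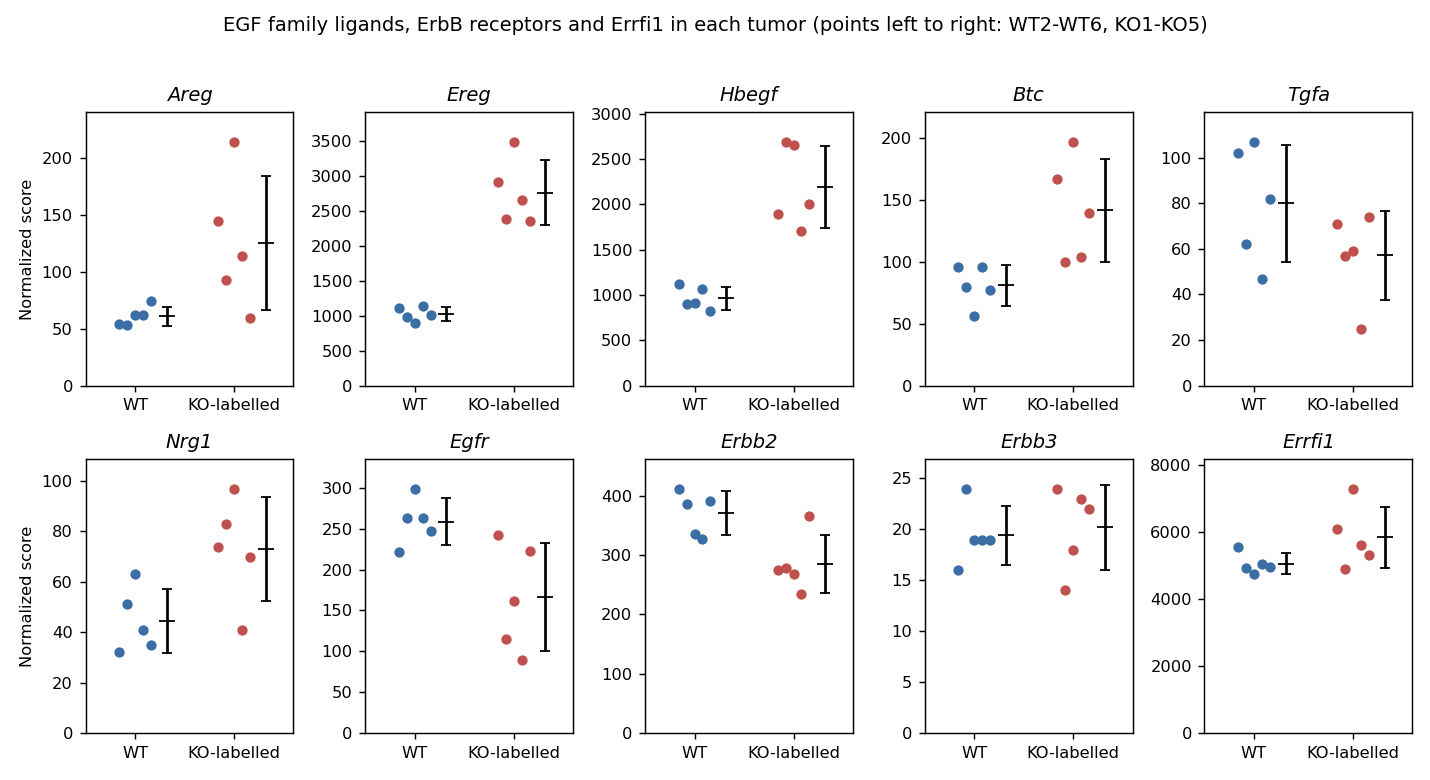
Normalized score (vertical axes, each starting at 0) of the 10 members in each of the 5 WT tumors (blue) and the 5 KO-labelled tumors (red), with the mean and SD of each group as black bars. Ereg, Hbegf and, narrowly, Btc lay above the WT range in every KO-labelled tumor, whereas Areg, Nrg1, Egfr and Erbb2 each had at least 1 KO-labelled tumor within it.

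Ereg, epiregulin, was the ligand with the largest difference. It scored 1116, 981, 904, 1145 and 1007 in WT2 to WT6, and 2909, 2387, 3488, 2658 and 2352 in KO1 to KO5. Every KO-labelled tumor lay above the highest WT tumor, a separation that 11.9% of all tested genes showed in this direction. Mean scores were 1031 ± 99.3 and 2759 ± 465.9 (SD, n = 5 each), a 2.68-fold difference. The log2 difference was 1.41 ± 0.11 (SE; 95% interval 1.17 to 1.65) with an adjusted p of 2.94e-06 in the limma fit.

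Areg, amphiregulin, lies close to Ereg on chromosome 5 and scored 54, 53, 62, 62 and 74 in WT tumors and 144, 93, 214, 114 and 59 in KO-labelled tumors. The first 4 KO-labelled values exceeded every WT value, whereas KO5 fell within the WT range. The mean score rose from 61.0 ± 8.43 to 124.8 ± 58.7 (SD, n = 5 each), a 2.05-fold difference with a log2 difference of 0.90 ± 0.27 (SE; 95% interval 0.32 to 1.49) and an adjusted p of 0.0208 (limma). Without KO5 the log2 difference was 1.14 and the adjusted p 0.00145, the lowest of the fits that left out 1 tumor, in which it reached 0.0493 at most.

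Btc, betacellulin, is the third ligand gene of the same stretch of chromosome 5. It scored 96, 80, 56, 96 and 77 in WT tumors and 167, 100, 197, 104 and 139 in KO-labelled tumors. The groups did not overlap, although KO2 and KO4 were close to the highest WT tumors. The difference was 1.75-fold, or 0.77 ± 0.21 on the log2 scale (SE; 95% interval 0.32 to 1.22), with an adjusted p of 0.0119 (limma). Epgn, the 4th EGF family gene of that stretch, was listed at 0 in every library.

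The 4 genes lie within 375.5 kb of chromosome 5 (build GRCm38, which is mm10, GENCODE annotation): Epgn at chr5:91027464-91035215, Ereg at chr5:91074622-91093646 and Areg at chr5:91139599-91148432 on the plus strand, and Btc at chr5:91357261-91402994 on the minus strand. The end of Ereg and the start of Areg are 45.95 kb apart. Ereg and Areg did not keep a fixed ratio. The Ereg score was 13.6 to 20.7 times that of Areg in WT tumors and 16.3 to 39.9 times in KO-labelled tumors, with KO5, the tumor of lowest Areg, at the top. These ratios are between scores not corrected for length, and so only their spread between tumors is read.

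Each ligand binds its receptor through an EGF-like domain, a short fold held by 6 cysteines that form 3 disulfide bonds. The bases that encode it are shown for 5 of the ligands, from the first to the last of the 6 cysteines, since this is the feature that makes the family and the part through which one member could be miscounted as another. The sequences were read from the GENCODE transcripts and run 5′ to 3′, with the cysteine codons in capitals. Those of Areg, Ereg and Btc on chromosome 5 and Tgfa on chromosome 6 take 36 codons, and that of Nrg1 on chromosome 8 takes 40.
Areg: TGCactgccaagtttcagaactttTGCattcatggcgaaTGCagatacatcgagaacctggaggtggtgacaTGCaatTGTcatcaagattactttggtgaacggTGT
Ereg: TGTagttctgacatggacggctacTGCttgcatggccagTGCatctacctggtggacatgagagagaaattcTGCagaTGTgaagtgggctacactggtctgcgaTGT
Btc: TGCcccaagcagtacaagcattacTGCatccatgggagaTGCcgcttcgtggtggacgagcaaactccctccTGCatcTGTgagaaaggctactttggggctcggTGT
Tgfa: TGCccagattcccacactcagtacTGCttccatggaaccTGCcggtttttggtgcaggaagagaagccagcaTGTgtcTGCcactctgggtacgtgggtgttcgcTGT
Nrg1: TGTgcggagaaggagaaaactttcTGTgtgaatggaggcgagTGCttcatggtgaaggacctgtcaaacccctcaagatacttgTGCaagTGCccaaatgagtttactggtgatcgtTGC

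The spacing of the cysteines is the same in the first 4 of these sequences, and Nrg1 has longer stretches between the second and the third and between the third and the fourth. Between the cysteines they differ: translated and aligned, the domains of Areg and Ereg share 33.3% of their residues, those of Btc and Tgfa 52.8% and those of Tgfa and Nrg1 25.0%. Over the 45 pairs of members, the longest run of bases that the protein-coding transcripts of any pair have in common is 21 bases, shorter than a sequencing read of this study. A full read of one member therefore matches no other member.

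Hbegf, heparin-binding EGF-like growth factor, also rose. It scored 1119, 899, 916, 1070 and 819 in WT tumors and 1889, 2692, 2649, 1711 and 1999 in KO-labelled tumors, with no overlap. KO2 and KO3 were the highest. Means were 964.6 ± 125.3 and 2188 ± 452.5 (SD, n = 5 each), a 2.27-fold difference, with a log2 difference of 1.17 ± 0.13 (SE; 95% interval 0.87 to 1.46) and an adjusted p of 4.91e-05 (limma). No other annotated gene overlaps Hbegf, Areg or Btc, whereas an antisense gene (Gm19610) overlaps Ereg.

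Nrg1, neuregulin 1, the ligand that acts through Erbb3 and Erbb4, was scored low throughout. It had 32, 51, 63, 41 and 35 in WT tumors and 74, 83, 97, 41 and 70 in KO-labelled tumors. KO4 equalled a WT tumor, and the other 4 KO-labelled tumors lay above all WT tumors. The difference was 1.64-fold, or 0.69 ± 0.24 on the log2 scale (SE; 95% interval 0.17 to 1.22), with an adjusted p of 0.0413 (limma). The call was lost in 11 of 21 alternative fits, among them those without WT2 (adjusted p 0.1001), WT3 (0.0513), WT5 (0.0761), WT6 (0.0945), KO1 (0.0633), KO2 (0.0868), KO3 (0.103) or KO5 (0.0539), with log2 differences of 0.58 to 0.89 over all fits that left out 1 tumor. The gene spans more than a megabase (chr8:31814551-32884029, minus strand) and has 12 protein-coding transcripts in the annotation, which scores per gene do not tell apart.

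Tgfa, transforming growth factor alpha, was the one ligand whose mean was lower in KO-labelled tumors. It scored 102, 62, 107, 47 and 82 in WT tumors and 71, 57, 59, 25 and 74 in KO-labelled tumors, and the groups overlapped. The log2 difference of -0.50 ± 0.30 (SE; 95% interval -1.15 to 0.15) did not pass the test (adjusted p 0.210, limma). Without KO4, the lowest tumor, it was -0.23, and fits without 1 tumor ranged from -0.68 to -0.23. The interval leaves room for a fall of more than 2-fold and for a small rise.

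Egfr, the receptor shared by Areg, Ereg, Hbegf, Btc and Tgfa, fell. It scored 221, 263, 299, 263 and 247 in WT tumors and 242, 115, 161, 89 and 223 in KO-labelled tumors. KO2, KO3 and KO4 lay below every WT tumor, whereas KO1 and KO5 lay within the WT range. The mean fell from 258.6 ± 28.4 to 166.0 ± 66.3 (SD, n = 5 each), 1.56-fold lower, with a log2 difference of -0.73 ± 0.24 (SE; 95% interval -1.24 to -0.22) and an adjusted p of 0.0293 (limma). The direction held when any 1 tumor was left out (-0.89 to -0.53), but the adjusted p passed 0.05 without WT3 (0.0581), WT4 (0.0691), WT5 (0.0552), WT6 (0.0509), KO2 (0.0717), KO3 (0.0501) or KO4 (0.0536). Over all 21 alternatives it lay between 0.00781 and 0.0717. Egfr lies at chr11:16752203-16918158 on the plus strand and is overlapped by an antisense gene, Egfros.

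Erbb2, the partner receptor without a ligand of its own, also fell. It scored 412, 386, 336, 327 and 392 in WT tumors and 275, 278, 268, 235 and 366 in KO-labelled tumors. Only KO5 of the KO-labelled tumors reached the WT range. The mean fell 1.30-fold, from 370.6 ± 37.1 to 284.4 ± 48.7 (SD, n = 5 each), with a log2 difference of -0.39 ± 0.12 (SE; 95% interval -0.65 to -0.13) and an adjusted p of 0.0223 (limma). The call was lost without WT2 (adjusted p 0.0591), WT3 (0.0524) or WT6 (0.0535), and adjusted p over the 21 alternatives ranged from 0.00274 to 0.0591. Erbb2 lies at chr11:98412470-98437716 on the plus strand and overlaps the protein-coding gene Mien1 on the minus strand.

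Erbb3, the receptor with little kinase activity that binds Nrg1, scored only 16, 24, 19, 19 and 19 in WT tumors and 24, 14, 18, 23 and 22 in KO-labelled tumors. The groups overlapped, with KO2 below every WT tumor. Its log2 difference was 0.04 ± 0.21 (SE; 95% interval -0.42 to 0.51; adjusted p 0.895, limma), and changes within this interval were not excluded. The sign turned to -0.01 with scores rescaled to equal library totals. Erbb4, the remaining receptor of the family, was listed at 0 in every library.

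No member, receptors included, had every KO-labelled value below every WT value, a separation that 12.9% of all tested genes showed. Errfi1, which encodes an intracellular inhibitor of Egfr and Erbb2 kinases (also called Mig6) and is itself induced by growth factor signals, had the highest score of the members. It scored 5573, 4942, 4753, 5061 and 4952 in WT tumors and 6088, 4903, 7304, 5607 and 5321 in KO-labelled tumors. KO1, KO3 and KO4 exceeded every WT tumor, and KO2 and KO5 did not. The log2 difference of 0.20 ± 0.10 (SE; 95% interval -0.02 to 0.41) did not pass the test (adjusted p 0.139, limma). Without KO3, the highest tumor, it was 0.11, and fits without 1 tumor ranged from 0.11 to 0.26.

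**Figure D2:**
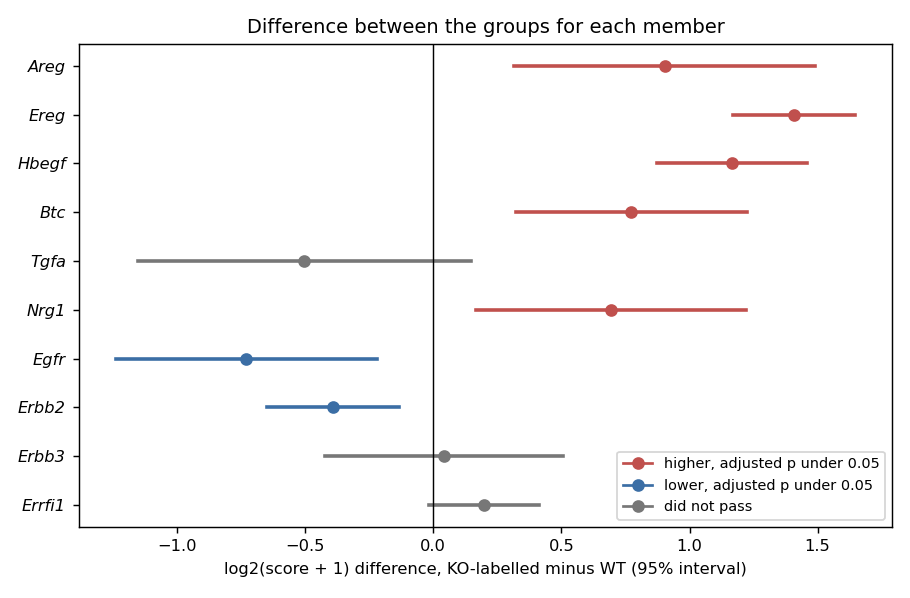
Difference between KO-labelled and WT tumors (horizontal axis, log2(score + 1)) for each member, as the limma estimate (point) with its 95% interval (line), over 5 tumors per group. The intervals of Areg, Ereg, Hbegf, Btc and Nrg1 lie right of 0 and those of Egfr and Erbb2 left of it, whereas those of Tgfa, Erbb3 and Errfi1 cover 0.

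The proportions of Ereg and of Hbegf to Egfr were higher in every KO-labelled tumor than in any WT tumor, whereas that of Areg was not. The Ereg score was 3.02 to 5.05 times that of Egfr in WT tumors, with a median of 4.08, and 10.6 to 29.9 times in KO-labelled tumors, with a median of 20.8. KO4, the tumor of lowest Egfr, stood at the top, and KO1 and KO5, whose Egfr was within the WT range, stood at the bottom but still above every WT tumor. For Hbegf over Egfr the range was 3.06 to 5.06 in WT tumors and 7.81 to 23.4 in KO-labelled tumors. Areg over Egfr overlapped between the groups, at 0.20 to 0.30 and 0.26 to 1.33, with KO5 again inside the WT range. These ratios rest on the same values as the differences above and were not tested.

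Per kilobase of exon, the members spanned a wide range of levels. In WT tumors the order of the mean score per kb was Errfi1 (1412), Ereg (249.7), Hbegf (199.5), Erbb2 (71.1), Areg (50.2), Egfr (22.8), Btc (17.9), Tgfa (12.3), Nrg1 (4.29) and Erbb3 (3.23). The WT ranges of Ereg and Hbegf touched (219.0 to 277.4 and 169.4 to 231.5), as did those of Egfr and Btc (19.5 to 26.4 and 12.4 to 21.2), those of Btc and Tgfa, and those of Nrg1 and Erbb3, so these neighbours were not set apart by their spread. In KO-labelled tumors the first 3 places were unchanged, with Errfi1 at 1632, Ereg at 668.3 and Hbegf at 452.6 per kb. Areg at 102.7 now stood above Erbb2 at 54.6, and Btc at 31.3 above Egfr at 14.7, although the ranges of Areg (48.6 to 176.1) and Erbb2 (45.1 to 70.2) overlapped. The lengths are those of all annotated exons of a gene joined, and the isoforms present in the tumors were not determined.

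**Figure D3:**
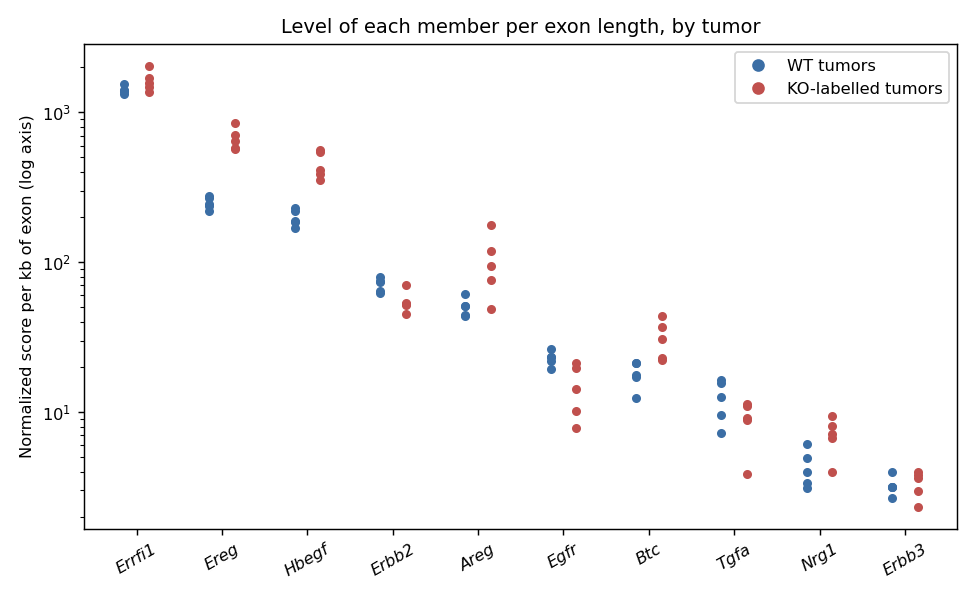
Normalized score per kb of annotated exon (vertical axis, logarithmic) of each member, 1 point per tumor, in the 5 WT tumors (blue) and the 5 KO-labelled tumors (red), with members ordered by their WT mean. Levels run from Errfi1, at 1412 per kb in WT tumors, to Erbb3, at 3.23.

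KO-labelled tumors were less alike than WT tumors. The coefficient of variation of the score was larger in the KO-labelled group for 9 of the 10 members, with medians of 24.5% against 13.4% in WT tumors, and Nrg1 was the exception. The same held across all tested genes, whose median SD on the log2 scale was 0.225 in KO-labelled and 0.115 in WT tumors. KO3 was the highest KO-labelled tumor for 5 members (Areg, Ereg, Btc, Nrg1 and Errfi1), and KO4 was the lowest for 5 (Hbegf, Tgfa, Nrg1, Egfr and Erbb2). No single tumor was extreme for all ligands: KO5 had the lowest Areg and Ereg but an intermediate Btc, Hbegf and Nrg1.

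The genes whose profile over the 10 tumors was most like that of a member were looked up for the members with the most positive and the most negative difference. Likeness was measured as the root mean square difference of log2(score + 1) profiles, each centred on its own mean, over 11158 genes. Nearest to Ereg were Upp1 (0.15), a uridine phosphorylase, Itgb2 (0.17), the beta chain of the leukocyte integrins, and Glrx (0.18), a glutaredoxin. Upp1 scored 1851 to 2502 in WT tumors and 3861 to 7208 in KO-labelled tumors, with KO3 highest and KO5 lowest, as for Ereg. Nearest to Egfr were Sik2 (0.16), a salt-inducible kinase, Neo1 (0.17), the receptor neogenin, and Nbea (0.17), neurobeachin. Each of these 3 had lower scores in KO2, KO3 and KO4 than in KO1 and KO5, the order Egfr also showed. The genes were picked by likeness over these same 10 tumors, so a shared order of tumors follows in large part from the choice. These are descriptions that include the difference between the groups, and no p-value is attached to them.

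Promoter sequences were compared for a further feature that the choice of members did not use. RefSeq (GRCm38.p6) gave 7 promoter entries for 6 members (Areg, Btc, Tgfa, Egfr, Erbb2 and 2 starts of Errfi1), each 300 bases long with 250 before and 50 after the start. Ereg, Hbegf, Nrg1 and Erbb3 had no entry and were not searched. The 7 entries were searched on both strands for TGACGTCA, the full cyclic AMP response element bound by Creb and Atf factors, for TGACTCA, the site of AP-1 factors, and for TATAAA, the TATA box. These motifs do not overlap one another. TGACGTCA was in the entries of Areg and of the second start of Errfi1, both of which also hold TATAAA, and in none of the other 5. For scale, 1.79% of 32851 promoters held TGACGTCA, 13.6% held TATAAA and 5.2% held TGACTCA, which no member's entry contained. These 2 promoters are shown because they share both elements in the same order, with TGACGTCA beginning 61 bases before the start in Areg and 51 in Errfi1, and TATAAA 31 and 28 bases before it, while Areg rose in KO-labelled tumors and Errfi1 did not pass the test. Each is on the plus strand, 5′ to 3′, with both motifs in capitals, and covers chr5:91139349-91139648 for Areg and chr4:150854820-150855119 for Errfi1.
Areg: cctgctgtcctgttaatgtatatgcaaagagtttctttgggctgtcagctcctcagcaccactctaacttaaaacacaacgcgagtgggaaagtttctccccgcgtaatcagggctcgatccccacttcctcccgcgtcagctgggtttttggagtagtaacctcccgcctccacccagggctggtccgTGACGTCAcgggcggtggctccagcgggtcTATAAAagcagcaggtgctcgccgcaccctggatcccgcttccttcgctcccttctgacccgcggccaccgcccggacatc
Errfi1: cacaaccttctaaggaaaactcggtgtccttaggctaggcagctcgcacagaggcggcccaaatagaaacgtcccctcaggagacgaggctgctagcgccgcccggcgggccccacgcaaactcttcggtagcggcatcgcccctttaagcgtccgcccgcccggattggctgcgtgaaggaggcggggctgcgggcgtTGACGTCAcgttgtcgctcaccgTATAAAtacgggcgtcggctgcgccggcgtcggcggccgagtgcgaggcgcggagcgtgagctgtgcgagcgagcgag
A match describes letters in a window and not a bound factor, and a motif that was not found says nothing about the factor.

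Around the members, the genes that release the ligands or, as Timp3 does, inhibit the release moved in both directions. Of 11 genes of ligand shedding, all measured, 1 rose, 5 fell and 5 were not called, beside 17.5% higher and 18.2% lower among all tested genes. Their median log2 difference was -0.10, against -0.0006 over all tested genes. Rhbdf2, an inactive rhomboid protein that carries Adam17 to the cell surface, rose from 580.8 ± 55.5 to 1032 ± 63.2 (SD, n = 5 each), 1.78-fold, with an adjusted p of 1.49e-05 (limma), and its groups did not overlap. Its relative Rhbdf1 fell 1.42-fold, from 1414 to 992.8 (adjusted p 0.00044, limma). Timp3, the secreted inhibitor of Adam17 and other metalloproteases, fell 2.99-fold, from 5593 ± 1708 to 1869 ± 669.7, with every KO-labelled tumor (1124 to 2441) below every WT tumor (4144 to 8497; adjusted p 0.000393, limma). Bace1, a membrane protease that cuts Nrg1 in nerve tissue, fell 1.5-fold (adjusted p 0.00276, limma). The proteases Adam12 and Adam10 also fell, 1.51-fold and 1.18-fold (adjusted p 0.0327 and 0.0408, limma), with overlapping groups. Adam17 itself scored 2737 to 3228 in WT and 3233 to 3540 in KO-labelled tumors, without overlap, and its log2 difference of 0.18 ± 0.07 did not pass the test (adjusted p 0.0537, limma).

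Of the other EGF family genes, Epgn, Nrg3, Nrg4 and Erbb4 were listed at 0 in all libraries, and neither Egf nor Nrg2 was called (median log2 difference -0.37). Egf scored 24, 25, 26, 20 and 21 in WT tumors and 17, 15, 10, 23 and 7 in KO-labelled tumors (adjusted p 0.0594, limma). A 0 cannot be taken as an absent transcript, since Rpl26 and Rpl30, which encode parts of the ribosome and are needed by every cell, are also listed at 0 in all 10 libraries.

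Next came genes that carry the signal inside the cell. Of 15 listed adaptors and effectors that dock on ErbB receptors, 14 were measured, of which 6 fell, 0 rose and 8 were not called, with a median log2 difference of -0.10, beside 18.2% lower and 17.5% higher among all tested genes. Shc1, the adaptor that links Egfr to Grb2 and Ras, fell 1.39-fold (2481 ± 104.8 to 1781 ± 240.7, adjusted p 0.00133, limma) and Plcg1, phospholipase C gamma, 1.52-fold (757.4 ± 56.4 to 496.8 ± 105.7, adjusted p 0.00271, limma). In both, and in the adaptor Nck2 (1.29-fold lower), the groups did not overlap, whereas the exchange factor Vav2 (1.40-fold lower) had KO5 within the WT range. Every KO-labelled value lay below every WT value in 12.9% of all tested genes. Grb2, Gab1, Sos1 and Ptpn11, also core adaptors of these receptors, were not called.

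Of 16 genes that restrain the receptors, 15 were measured, of which 2 rose, 4 fell and 9 were not called, with a median log2 difference of -0.18. These shares are near those of all tested genes, of which 17.5% were higher and 18.2% lower. The phosphatases Ptpn12 and Ptpn2 rose 1.34-fold and 1.41-fold (adjusted p 0.000832 and 0.00383, limma). Socs5, a suppressor of cytokine signalling reported to lower Egfr levels, fell 1.29-fold and the membrane protein Lrig3 1.42-fold (adjusted p 0.0019 and 0.00902, limma). In each of these 4, named for their small adjusted p, the groups did not overlap. Among all tested genes, 11.9% were separated with KO-labelled tumors above and 12.9% with them below. Erbb2ip and Lrig1 were also called lower (adjusted p 0.0106 and 0.0279, limma), and the groups overlapped in Lrig1. Cblc was listed at 0.

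Transcripts that commonly follow activity of the ERK pathway, which runs below the ErbB receptors and which the Braf allele of the injected cells also drives, formed the last list. Of 10 listed, 9 were measured, of which 4 fell, 0 rose and 5 were not called, with a median log2 difference of -0.22, beside 18.2% lower and 17.5% higher among all tested genes. Spry4 and Spry2, feedback inhibitors of receptor signalling, fell 1.64-fold (1920 ± 250.9 to 1172 ± 180.0, adjusted p 0.000707, limma) and 1.39-fold (1032 ± 87.7 to 743.6 ± 85.8, adjusted p 0.00183, limma). The ETS factors Etv4 and Etv5 fell 1.27-fold and 1.25-fold (adjusted p 0.00427 and 0.0304, limma). All 4 had every KO-labelled tumor below every WT tumor, a separation that 12.9% of all tested genes showed. They are the called genes of the list, so their separation follows in part from the choice. In the other measured genes of the list the groups overlapped. The phosphatase Dusp6 scored 3614 to 4419 in WT tumors and 3991 to 5661 in KO-labelled tumors and was not called (adjusted p 0.153, limma). Phlda1 and Epha2 had log2 differences of 0.39 and 0.21 and were not called either (adjusted p 0.0792 and 0.161, limma), nor were Dusp4 and Ccnd1. Epha4 was listed at 0.

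**Figure D4:**
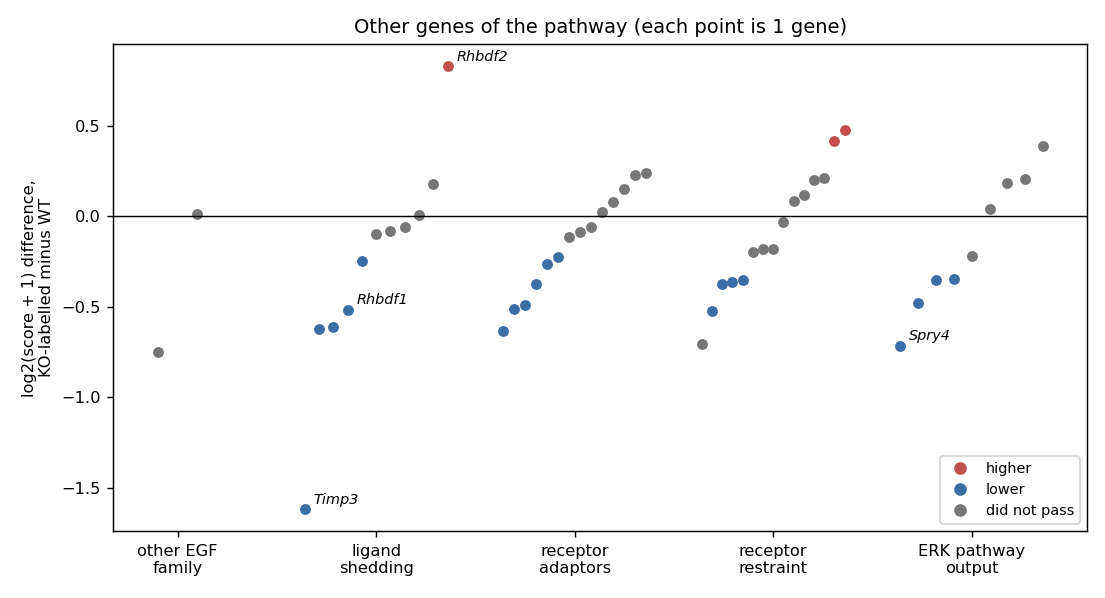
Log2(score + 1) difference, KO-labelled minus WT (vertical axis), of each measured gene in 5 lists of the pathway, 1 point per gene, sorted within a list and coloured by its call in the fit of all genes. In the adaptor and ERK output lists 6 and 4 genes fell and 0 rose, and Rhbdf2 (1.78-fold higher) and Timp3 (2.99-fold lower) are the extremes of the shedding list.

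Several lists of markers of the cell types that a tumor under the skin can hold differed between the groups. The counts below stand beside 17.5% called higher and 18.2% called lower among all tested genes. All 7 macrophage markers were measured and 5 were called higher, with summed scores of 25472 to 30811 in WT tumors and 32686 to 51606 in KO-labelled tumors. All 7 fibroblast and pericyte markers were called lower, with sums of 77232 to 85149 and 40540 to 54786. Of 5 neutrophil markers, 3 were measured and Csf3r was called higher (sums 371 to 525 and 618 to 1039), Cxcr2 was at 0 and Ly6g had no row. All 5 markers of regulatory T cells and ILC2 were measured, of which Il1rl1 was called higher (means 1568 and 4413) and Foxp3 lower (117.6 and 63.8), whereas Il2ra, Gata3 and Ctla4 were not called. Their sums were 1737 to 2782 and 3492 to 7043, and most of that difference was Il1rl1. Of the 7 mast cell and basophil markers, all measured, 2 were called lower (sums 2004 to 3755 and 1893 to 2552). Of the 6 endothelial markers, all measured, 2 were called higher and 3 lower (sums 4024 to 4600 and 3013 to 4286). The part of these cell types in the differences of ligands and receptors was not tested.

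For the cell types best known for ErbB signalling in skin, few markers were scored. Of 8 keratinocyte markers only Krt10 was above 0 (63 to 90 in WT and 47 to 103 in KO-labelled tumors), and Krt5, Krt14, Krt15, Krt1, Trp63, Dsg3 and Perp were at 0. Among Schwann cell markers, S100b (6.47-fold) and Cdh19 (4.01-fold) were called lower in KO-labelled tumors, whereas Sox10, Ngfr, Gfra3 and Foxd3 were at 0. Of 8 melanocytic markers only Mitf had values (277 to 406 and 278 to 409, not called), and Tyr, Tyrp1, Dct, Pmel, Mlana, Slc45a2 and Sox10 were at 0. Since a 0 here is no sign of absence, and Mitf is also made by macrophages and mast cells, these markers do not settle the label of a melanoma. Of 4 adipocyte markers only Fabp4 was measured (387 to 871 and 590 to 1404, not called), with Adipoq, Plin1 and Cidec at 0, and none of the 4 skeletal muscle markers was called (sums 1166 to 3315 and 1641 to 3548).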

How the data were processed

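Poly(A) RNA of whole tumors was made into directional libraries and sequenced single-end. The authors checked reads with FastQC, aligned them to mm10 with STAR, counted them with featureCounts and normalized them with edgeR through SARTools. Versions, annotation and strand setting are not stated in the sources used here, so reads of overlapping and antisense genes could not be told apart. The deposited table holds a score per gene and tumor, the count after the authors' normalization, rounded to a whole number. These are not raw counts, so no count model was used, and the depth of single libraries is unknown.

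Groups came from the sample titles and, for the columns KO4 and KO5, from the column names. The titles number the KO tumors 1, 2, 3, 5 and 6 and the columns 1 to 5, so the columns KO4 and KO5 were used without a replicate number. Of 24421 rows, 11495 were 0 in all libraries and 12926 were tested, 20 of which carry a date in place of a symbol. Scores were tested as log2(score + 1), a scale that understates changes of low genes, with limma 3.58.1 in R 4.3.3 (group effect, mean-variance trend, Benjamini-Hochberg adjustment, threshold 0.05). The fit was tested on simulated data. No library appeared to be deposited more than once: squared differences between libraries of a group were at least 21.3 times what counting error would give if scores were counts. Members, lists and tests were chosen with earlier results of these data known. All members were named, of each pathway list up to 4 genes past the threshold with the smallest adjusted p, and the 3 genes nearest in profile to the members with the most positive and most negative difference. Some items are not reported here. Other genes of a list are named outside this rule, to account for members that were not called or for further members that were. Alternatives changed the pseudocount, the filter on low scores, the scaling, the variance model and the tumors used. Gene positions, exons and transcripts were taken from GENCODE M21 (GRCm38) and promoters from RefSeq (GRCm38.p6). EGF-like domains were found by their cysteine spacing in the longest open reading frame that starts with ATG.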

Additional observations from a re-analysis of the deposited data

How the results depend on the processing

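The 21 alternatives were run for each member, except 1 that left Erbb3 without a value because its mean lies under 50. Ereg, Hbegf and Areg kept their calls in all 21, and Tgfa and Errfi1 were called in none. Over fits without 1 tumor each, all genes called numbered 3649 to 5182 (4606 with all tumors), members called higher 4 to 5, and members called lower 0 to 2. Nrg1 also lost its call with all-0 rows kept (adjusted p 0.0711), equal library totals (log2 difference 0.64, adjusted p 0.0551) and array weights per group (adjusted p 0.0604). Its adjusted p over the alternatives was 0.00691 to 0.103. The sign of Erbb3 turned with equal library totals (-0.0128), without KO4 and KO5 together (-0.0732) and in fits without 1 tumor, which gave -0.0236 to 0.16. The cause was not tested. Scores hold no depth, so what counting error adds for low members such as Erbb3 and Nrg1 is not known.

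Replicate numbers are shared with certainty only by the tumors numbered 2 and 3. Deviations from the group means correlated at 0.03 and 0.05 within numbers, and at 0.02 between WT2 and KO3. So few pairs cannot show whether the numbers pair the tumors, and the main fit assumed no pairing. A replicate block in these 4 tumors, which leaves 1 residual degree of freedom, gave 3902 called genes, and the same 4 tumors without the block 2938. There 4 members were called higher and 2 lower, Btc lost its call (log2 difference 0.67; adjusted p 0.0984 with the block and 0.185 without) and Erbb3 was at -0.29.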

Other observations

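Cbl, which encodes the ubiquitin ligase that marks Egfr for degradation, was named after its values were seen. It scored 571, 508, 717, 487 and 629 in WT tumors and 839, 287, 197, 166 and 698 in KO-labelled tumors. KO2, KO3 and KO4 lay below every WT tumor, as for Egfr, whereas KO1 lay above every WT tumor and KO5 within their range. Scores higher in KO1 and KO5 than in KO2, KO3 and KO4 were not particular to Cbl and Egfr. Sos1 scored 792, 628, 526, 505 and 805 in KO1 to KO5 and Usp8 1936, 1228, 1228, 1476 and 1775. Bace1 and the genes nearest to Egfr in profile had this order too. The group difference of Cbl did not pass the test (adjusted p 0.174, limma), and the split among KO-labelled tumors was not tested.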
